A study of Homo sapiens with 4 samples.

Results

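The RNA of PANC-1 cells before any immunoprecipitation was compared between a culture given sodium lactate and a culture given the vehicle. The comparison holds every gene with an FPKM of at least 1 in either input library, 6766 of the 24483 genes in the deposited table. FPKM scales the fragments of a gene by its length and by the library's total. Of these genes, 30 are encoded by the mitochondrial genome and are described apart, and 6736 are nuclear. Among the nuclear genes, 5142 reached the minimum in both inputs, 1359 in the vehicle input only and 235 in the lactate input only. PANC-1 is an established human line of pancreatic ductal adenocarcinoma, here of wild-type genotype and grown with serum. Lactate was given as 30 mM sodium lactate for 24 h, and the vehicle was water. The series holds 4 libraries, an input and an IP with an antibody against the RNA methyltransferase NSUN2 from each condition, with 1 library per group. No difference below therefore has a replicate error, no test was run, and the values describe these libraries.

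Lactate is the end product of glycolysis under low oxygen and in many tumours, and it leaves or enters cells through proton-coupled carriers. Inside the cell it can be turned back into pyruvate, and its acyl group can be placed on lysines of histones and other proteins, which is called lactylation. Input RNA from such an experiment is the baseline against which bound RNA is read, so that a gene's level there bears on any change in its binding.

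The 2 inputs differed in depth and make-up. The library totals behind the FPKM values, recovered from them, were 17626197 reads for the vehicle input and 11175432 for the lactate input. Recovered reads of nuclear genes made up 31.27% of the first (95% Wilson interval 31.25% to 31.29%) and 20.93% of the second (20.91% to 20.96%). The recovered reads of some genes are understated, which these intervals do not cover. The median nuclear gene had 250 reads in the vehicle input and 105 in the lactate input. On the deposited scale the median nuclear gene was lower by 0.43 (log2) with lactate, so each value below is log2 of (lactate FPKM + 1) over (vehicle FPKM + 1) minus that median, called the relative log2 ratio. A gene at 0 had the ratio of the median nuclear gene. The added 1 pulls low genes toward 0 on the deposited scale. A gene whose FPKM ratio equals the median ratio thus gets 0.16 at a vehicle FPKM of 1, −0.05 at 5, −0.13 at 20 and −0.16 at 100, and no gene with a vehicle FPKM under 1.70 can reach −1. For genes with at least 50 reads over both inputs a ratio without a pseudocount is therefore given too, relative to the median nuclear gene on that scale, with a 95% interval from the reads. Such intervals cover counting error only, since the reads carry no molecular identifiers. A gene with no read may still make up 1.7e-05% of the vehicle and 2.68e-05% of the lactate input, the share of 3 reads.

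Most markers of the labelled cell type were present, some of them at a low level. Of 10 markers of this ductal carcinoma epithelium, 9 reached an FPKM of 1, led by S100A6, a calcium-binding protein, at 2929 with vehicle and 1740 with lactate. The exception was KRT7, a simple-epithelium keratin, at 0.369 and 0.0671. With vehicle the keratins KRT18 and KRT8 had FPKM 116 and 28.9, but CLDN4 had 3.45, KRT19 3.08 and EPCAM 1.56. The 9 also include VIM, a mesenchymal filament, at 237 and 176. Markers of acinar, islet, endothelial and immune cells summed to an FPKM of at most 0.373 in either input. The deposited table held only 1 of 5 acinar, 0 of 4 islet, 3 of 4 endothelial and 3 of 6 immune markers. The others have no value, so their absence was not measured. Of 6 fibroblast markers 2 passed the minimum, with a summed FPKM of 3.06 and 2.36, and of 8 neuron and Schwann cell markers SYT1 alone did, at 12.3 and 9.54.

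Large shifts were few among genes with many reads. Of the 6736 nuclear genes, 172 (2.55%) stood 2-fold or more above the median nuclear gene after lactate and 89 (1.32%) stood 2-fold or more below it. These genes were mostly ones with hardly any reads, with a median of 7 reads over both inputs in the higher and 12 in the lower set. Of the 263 genes with under 10 reads, 111 stood 2-fold higher and 37 lower, against 0 and 10 of the 1456 genes with at least 1000 reads. Among 5549 protein-coding genes, 8 (0.144%) were 2-fold higher and 8 (0.144%) 2-fold lower. At 0.5 on the log2 scale, or 1.41-fold, 479 nuclear genes (7.11%) were higher and 578 (8.58%) lower, of which protein-coding genes made up 194 (3.5% of those tested) and 284 (5.12%). Without a pseudocount and with at least 50 reads, 50 of 5484 protein-coding genes (0.912%) were 2-fold higher and 115 (2.1%) lower, and 406 (7.4%) and 571 (10.4%) passed 0.5. The split between directions moved with the scale. Higher genes made up 65.9% of the 2-fold genes and 45.3% of those past 0.5, against 20.9% and 6.4% on the deposited scale, 47.4% and 42.8% with FPKM rescaled to equal nuclear totals, and 75.4% and 56.2% relative to genes of like length.

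**Figure D1:**
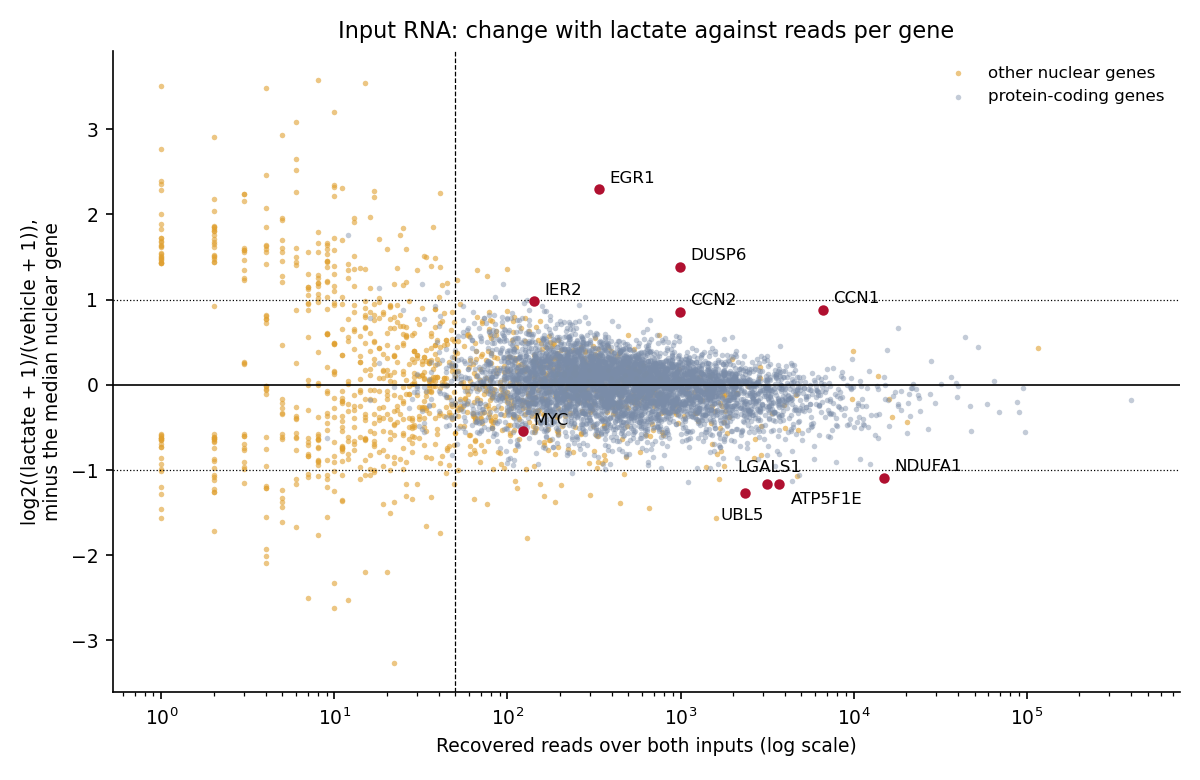
Relative log2 ratio of lactate over vehicle input (vertical axis) against the recovered reads of a gene over both inputs (horizontal axis, log scale), 1 point per nuclear gene; the dashed line marks 50 reads and the dotted lines 2-fold. The spread narrows as reads increase, and EGR1 at 2.29 and DUSP6 at 1.39 stand above the protein-coding genes of like depth while UBL5 at −1.27 stands below them.

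EGR1, an early growth response transcription factor that serum, growth factors and stress switch on within minutes, had the highest ratio of any protein-coding gene with at least 50 reads. Its FPKM was 1.34 with vehicle and 7.50 with lactate, from 74 and 263 reads. The lactate library thus held more EGR1 reads although its nuclear reads were fewer. Its relative log2 ratio was 2.29, and without a pseudocount it was 3.08 (95% interval 2.70 to 3.47). EGR1 lies at chr5:138465479-138469303 (RefSeq, GRCh38.p14). It is a textbook target of serum response factor, which binds CArG boxes, short runs of A and T between CC and GG. A box on either strand is also a box on the other. The stretch of the EGR1 promoter from 125 to 54 bases upstream of the start site, chr5:138465354-138465425 on the plus strand, holds 2 matches, shown because this gene moved most; capitals mark the boxes.
EGR1: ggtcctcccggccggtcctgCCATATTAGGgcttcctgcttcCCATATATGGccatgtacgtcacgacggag
A match in the 300 bases around the start site was found in 351 of 27305 RefSeq promoters (1.29%) and in 55 of the 4629 tested protein-coding genes with a promoter in the table (1.19%). Those 55 genes had a median of −0.06, with 2 at least 0.5 higher and 1 at least 0.5 lower. These matches are letters in a window, and binding was not measured.

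The other immediate early genes, the class EGR1 belongs to, stood modestly above the median, with MYC as the exception. The minimum was passed by 13 of 25 such genes, and 12 of these lay above the median nuclear gene. The median of the list was 0.26, or 0.40 without a pseudocount. IER2, a short-lived nuclear protein, had FPKM 1.22 and 2.24 (relative log2 ratio 0.98, without a pseudocount 1.47, interval 0.98 to 1.97). KLF10, a zinc finger factor induced by TGF-beta, was near the median at 0.02. MYC, a growth-promoting transcription factor, had FPKM 1.39 with vehicle and 0.215 with lactate, from 112 and 11 reads. Its relative log2 ratio was −0.54, and without a pseudocount −2.10 (interval −3.14 to −1.20), so the pseudocount hid most of its difference. Among the 9 members with a promoter in the table, CArG boxes were found in EGR1 and SRF, and SRF itself stood at 0.23.

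Feedback genes of the ERK pathway also lay mostly above the median. ERK is the last kinase of the growth factor cascade, and the dual-specificity phosphatases (DUSP) and Sprouty proteins it induces switch the cascade off. DUSP6, which dephosphorylates ERK in the cytoplasm, had FPKM 6.31 with vehicle and 13.2 with lactate, from 429 and 568 reads, giving 1.39 (without a pseudocount 1.66, interval 1.47 to 1.84). DUSP6 lies at chr12:89347235-89352501. SPRY2, an inhibitor of receptor tyrosine kinase signalling, went from 2.28 to 2.95 in FPKM, a relative log2 ratio of 0.70. The other members past 0.5, chosen after their values were seen, were SPRY1 at 0.67 and the nuclear phosphatase DUSP5 at 0.58. Of 19 measured members, 14 lay above the median, 4 were at least 0.5 higher and 0 at least 0.5 lower, and the list median was 0.20 (0.30 without a pseudocount). The lowest were SPRED1 at −0.33, a Sprouty-related inhibitor, and the growth factor EREG at −0.17. Without a pseudocount 5 were at least 0.5 higher and 1 at least 0.5 lower, the cytokine LIF at −0.83 on 89 reads. No CArG box was found in the 15 promoters of this list.

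Targets of YAP and TEAD, the transcription pair held back by Hippo signalling, were led by the matricellular proteins CCN1 and CCN2. CCN1 was abundant, with FPKM 54.5 and 74.8 from 3551 and 3092 reads, and stood at 0.88 (without a pseudocount 1.05, interval 0.98 to 1.12). CCN2 had FPKM 12.8 and 17.6 and stood at 0.86 (1.05 without a pseudocount, interval 0.87 to 1.23). Both values were also higher on the deposited scale. With the added 1 the other 15 measured members lay within 0.5 of the median, though NT5E reached 0.64 without a pseudocount. They ran from AXL, a receptor tyrosine kinase, at −0.20 and the focal adhesion adaptor ASAP1 at −0.12 upward. The list median was 0.17 over 17 genes, 0.26 without a pseudocount, and no CArG box was found in its 13 promoters. ANKRD1 is often read together with CCN1 and CCN2 and was picked after its value was seen; it had FPKM 12.96 and 9.30 and stood at −0.01.

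The rest of the 15 highest genes rested on few reads and did not share a listed function. They were CTHRC1 (1.18), a secreted matrix glycoprotein; the histone H2AW (1.03); the fatty acid elongase ELOVL7 (0.99); CSAD (0.96), an enzyme of taurine synthesis; PLAA (0.93), a phospholipase A2 activator that works with the ubiquitin system; SLC2A4RG (0.93), a transcription factor for the insulin-responsive glucose carrier gene; the Cdc42 effector CDC42EP1 (0.92); IGFBP6 (0.88), which binds insulin-like growth factor; PPDPF (0.87); and TNIP2 (0.86), an inhibitor of NF-kappaB signalling. Their reads ran from 23 in the vehicle input, for CDC42EP1, to 136 in the lactate input, for PLAA. Their lower interval bounds without a pseudocount ran from 0.65 for PPDPF to 1.18 for ELOVL7. ELOVL7, CSAD and CDC42EP1 passed the FPKM minimum in the lactate input only, with vehicle FPKM 0.699, 0.695 and 0.514. The minimum thus admitted them through the input where they were high, which favours a high rank.

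The 15 lowest genes included 6 that work in mitochondria, and most had many more reads than the highest. UBL5, a ubiquitin-like protein that binds the splicing machinery, had FPKM 58.5 with vehicle and 17.2 with lactate from 1990 and 372 reads, giving −1.27 (without a pseudocount −1.17, interval −1.33 to −1.01). LGALS1, the secreted sugar-binding protein galectin-1, went from 139 to 45.2 (−1.17). ATP5F1E, the epsilon subunit of ATP synthase, had FPKM 34.5 and 10.8 (−1.16), and ATP5PF, a subunit of its stalk, 102 and 34.1 (−1.13). TIMM8B, a chaperone of the intermembrane space, stood at −1.14, NDUFA1, a small complex I subunit, at −1.09 with FPKM 1654 and 575, and COX6B1, a complex IV subunit, at −0.96. COQ3, a methyltransferase of ubiquinone synthesis, stood at −0.95 but had only 94 and 13 reads. The others were SNRPG (−1.06), an Sm protein of the spliceosome; LAMTOR2 (−1.03), a Ragulator subunit that docks mTORC1 on lysosomes; AGR2 (−0.99), a disulfide isomerase of the endoplasmic reticulum; YAE1 (−0.98), an iron-sulfur cluster assembly adaptor; RPE (−0.98), of the pentose phosphate pathway; IFITM3 (−0.97), an antiviral membrane protein; and TPRKB (−0.94), a subunit of the KEOPS tRNA-modifying complex. SNRPG shares sequence with 4 pseudogenes that held 2800 and 558 reads; summed with its own 3980 and 882 reads they gave −0.98 without a pseudocount, so the direction did not depend on how reads were shared out. For the other 14 the pseudogenes held at most 33 reads.

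Members of 44 gene lists were then counted, read against 3.5% of protein-coding genes at least 0.5 higher and 5.12% at least 0.5 lower. Without a pseudocount these shares were 7.4% and 10.4% over genes with at least 50 reads. The lists were drawn up with earlier results of these data known, so their counts are a description. A value in parentheses after a list median is the median without a pseudocount, over members with at least 50 reads. Of 1553 list symbols 1513 were in the table and 817 distinct genes were measured. With the added 1, which gives abundant genes lower values, 26 lists had a median below the median nuclear gene and 17 above. Without a pseudocount 5 of 41 list medians changed side.

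The lists of nuclear-encoded subunits of oxidative phosphorylation each had a median below 0, close to it in complexes II and III. This machinery passes electrons from complex I to complex IV and uses the proton gradient to make ATP. In complex IV all 12 subunits were below the median, 5 of them by at least 0.5, and the list median was −0.44 (−0.30 without a pseudocount). COX6B1 went from FPKM 117 to 44.2 and COX7B from 42.0 to 16.4 (−0.87), while COX4I1 at −0.12 and COX6C at −0.23 were nearest to the median. In ATP synthase 15 of 17 subunits were below, 8 by at least 0.5, with a median of −0.43 (−0.38 without a pseudocount). The catalytic-core subunits ATP5F1D at 0.15 and ATP5F1A at 0.02 were the 2 above. In complex I 25 of 30 were below, 9 by at least 0.5, with a median of −0.28 (−0.34); NDUFB1 stood at −0.72, and the iron-sulfur subunit NDUFS1 at 0.27. In complexes II and III 10 of 13 were below but only UQCRQ, at −0.63, passed 0.5, and the median was −0.16 (−0.12). Proteins of mitochondrial import had a median of −0.23 (−0.25), with TOMM7 at −0.93 among 4 of 21 at least 0.5 lower. Relative to genes of like length the medians were −0.32 for complex IV, −0.40 for ATP synthase, −0.18 for complex I, −0.13 for mitochondrial import and −0.06 for complexes II and III. With gene length taken into account and no pseudocount, ATP synthase had −0.33, complex I −0.21, complex IV −0.16, mitochondrial import −0.14 and complexes II and III −0.04. Without a pseudocount 4 of 12 complex IV, 4 of 17 ATP synthase and 8 of 30 complex I subunits were at least 0.5 lower. Mitochondrial import had 4 of 21 and complexes II and III 0 of 13, against 10.4% of protein-coding genes.

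Most lists of translation and RNA handling also had medians below the median nuclear gene. The median over 47 large-subunit ribosomal proteins was −0.24 with 8 at least 0.5 lower, and over 31 small-subunit proteins −0.30 with 7. Without a pseudocount these medians were −0.11 and −0.16, since the added 1 gives abundant genes lower values, as stated above. On that scale 5 of the 47 and 3 of the 31 were at least 0.5 lower, against 10.4% of protein-coding genes. RPL38 had the lowest value of the cytoplasmic set with the added 1, with FPKM 129 and 51.7 (−0.88, without a pseudocount −0.73), and RPS23 the highest of the small subunit at 0.16. Without a pseudocount RPL7 was lower than RPL38, at −1.86 on 77 reads. Counts of ribosomal protein genes are uncertain because many have processed pseudogenes. Mitochondrial ribosomal proteins had a median of −0.21 (−0.18 without a pseudocount), with 11 of 65 at least 0.5 lower, led by MRPL54 at −0.86, and 2 at least 0.5 higher, led by MRPL36 at 0.78 on 73 reads. The Sm and LSm proteins, rings around spliceosomal and decay-linked RNA, had a median of −0.43 (−0.29), with 6 of 17 at least 0.5 lower. SNRPG was the lowest, SNRPD2 followed at −0.63, and LSM6 and SNRPN stood at 0.54 and 0.52. LSM6 and SNRPN passed the FPKM minimum in the lactate input only. The larger SR and hnRNP splicing factors had a median of −0.11 (−0.04), with HNRNPC at −0.72 and HNRNPAB at −0.57 the lowest of 27. Proteasome subunits had a median of −0.26 (−0.22), with 6 of 28 at least 0.5 lower, such as PSMB4 at −0.86, FPKM 37.4 and 14.7. Aminoacyl-tRNA synthetases lay closer, at −0.14 (−0.18), and only FARSA, at 0.79 on 93 reads, was past 0.5.

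**Figure D2:**
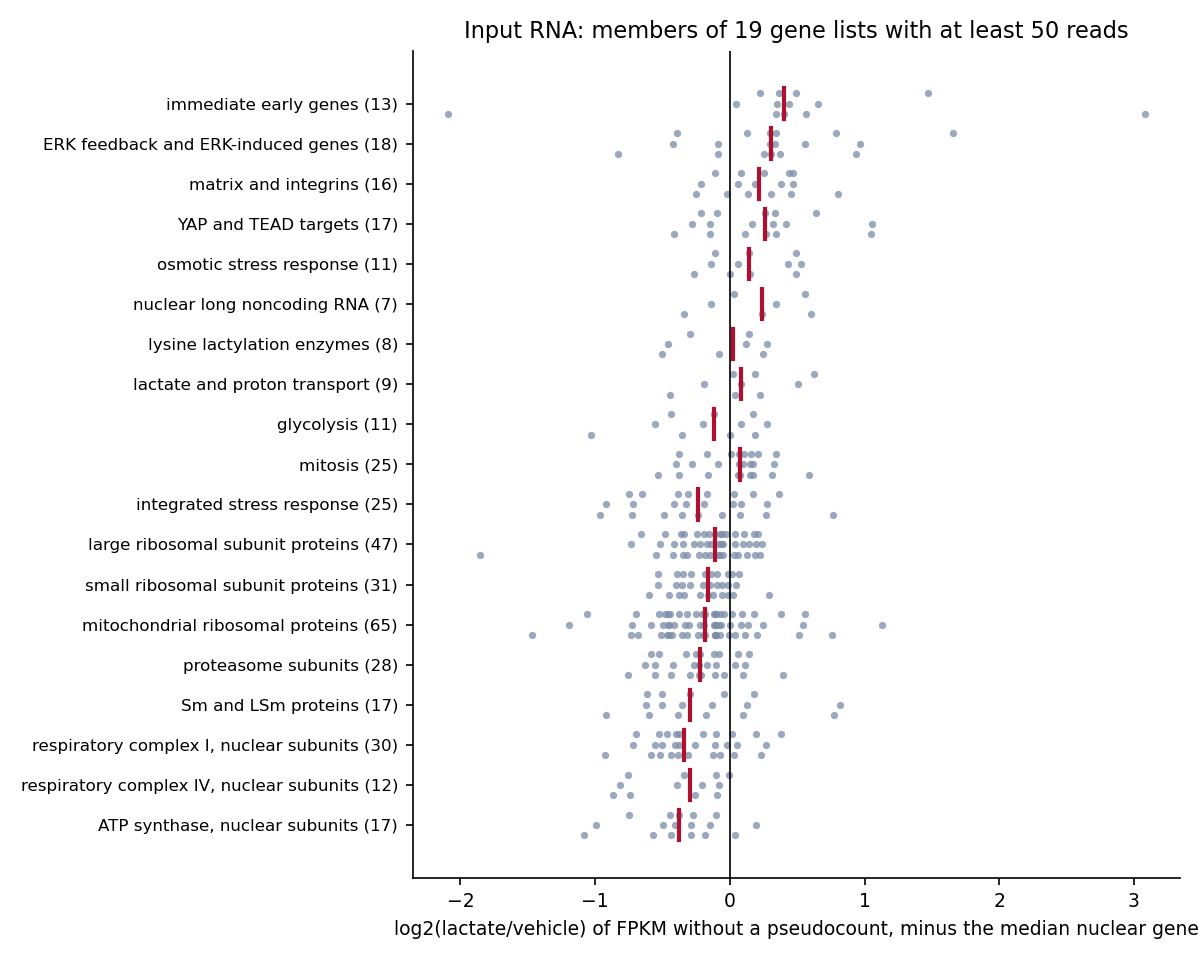
Log2 ratio of lactate over vehicle input without a pseudocount, minus the median nuclear gene (horizontal axis), 1 point per gene with at least 50 reads; red bars are list medians and the number of genes follows each list name. Immediate early genes have a median of 0.40, with EGR1 at 3.08 and MYC at −2.10 as their extremes, and complex IV and ATP synthase subunits have medians of −0.30 and −0.38.

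Stress programmes were mixed. The integrated stress response, in which ATF4 induces amino acid synthesis and transport genes, had a median of −0.18 (−0.24 without a pseudocount), with 4 of 25 members at least 0.5 lower and 1 at least 0.5 higher. DDIT3, the factor CHOP that can promote cell death, had FPKM 5.86 and 2.05 (−0.74), and PSPH, of serine synthesis, 7.07 and 2.79 (−0.66). At the other end stood CTH, of cysteine synthesis, at 0.55 and the stress sensor SESN2 at 0.28. Chaperones of the endoplasmic reticulum had a median of −0.03, but HSPA5, their main Hsp70, was lower with FPKM 22.7 and 11.1 (−0.53). Heat shock proteins had a median of −0.20 (−0.10), from HSPE1 at −0.59 to HSPA1A at 0.35. The NRF2 and oxidative stress list had a median of 0.07 (0.03) and 23 members. TXN, thioredoxin, was the lowest at −0.54, with FPKM 96.9 and 49.0. HMOX1, which breaks down heme, was the highest at 1.09 on 45 reads, followed by the ferritin heavy chain FTH1 at 0.81, with FPKM 2.63 and 3.71. HMOX1 passed the FPKM minimum in the lactate input only, with FPKM 0.369 and 1.16. Osmotic stress genes had a median of 0.10 (0.14), and none of 11 passed 0.5 with the added 1; their controlling factor NFAT5 was the highest at 0.40 (0.53 without a pseudocount) and the amino acid carrier SLC38A2 the lowest at −0.29. Hypoxia genes had a median of 0.02 (0.13), p53 targets 0.05 (0.13), and interferon and inflammatory genes 0.11 (0.13), the last with the chemokine CXCL8 at 0.79, FPKM 3.31 and 4.53.

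Lists of genes that make, move or use lactate had medians close to the median nuclear gene, though some members lay further away. In glycolysis 8 of 11 measured genes lay below, with a median of −0.07 (−0.12 without a pseudocount). GAPDH had FPKM 6.23 and 2.02 (−0.83) and TPI1 29.2 and 13.2 (−0.66), the 2 that passed 0.5, while PGK1 stood at 0.15 and PGAM1 at 0.10. Without a pseudocount GAPDH stood at −1.03 and TPI1 at −0.55. The GAPDH value rested on 317 reads. How reads that map to several places were counted is not known, so values of genes with processed pseudogenes are uncertain. The lactate and proton transport list had a median of −0.06, or 0.08 without a pseudocount, a change of side. SLC4A7, a sodium bicarbonate carrier, was highest at 0.46, with FPKM 13.6 and 13.8, followed by EMB at 0.35. PDHA1, of pyruvate dehydrogenase, was lowest at −0.36, followed by BSG at −0.25. Without a pseudocount 7 of 9 lay above the median. On that scale 2 of the 9, SLC4A7 (0.62) and EMB (0.50), were at least 0.5 higher, against 7.4% of protein-coding genes. Named for their role, LDHA and LDHB, which interconvert lactate and pyruvate, stood at −0.06 and 0.05, and the lactate carrier SLC16A1 at −0.06. Enzymes that add or remove lactyl groups had a median of 0.07 (0.02) over 8 genes. HDAC1 stood at −0.43 (−0.50 without a pseudocount), KAT2B at −0.16, AARS1 at 0.01, SIRT1 at 0.04, CREBBP at 0.10, HDAC2 at 0.13, HDAC3 at 0.16 and EP300 at 0.19, so none passed 0.5 with the added 1. Cholesterol genes had a median of −0.04 (−0.09), from EBP at −0.37 to STARD4 at 0.26.

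Cell identity and proliferation genes were mixed. The keratins KRT18 and KRT8, intermediate filaments of simple epithelium that pair with each other, were both lower, with FPKM 116 and 45.5 (−0.90) and 28.9 and 12.0 (−0.77), while the junction proteins CLDN7 and CLDN4 stood at 0.51 and 0.26 and the mesenchymal filament VIM at 0.01. The S100, annexin and galectin list had a median of −0.27 (−0.16), with LGALS1 lowest, ANXA2 at −0.50 and LGALS8 highest at 0.28. Actin cytoskeleton genes ran from CFL1 at −0.60 to MSN at 0.25 around a median of −0.06, or 0.08 without a pseudocount. Matrix and integrin genes had a median of 0.19 (0.22), with the crosslinking enzyme LOXL2 highest at 0.54 and the integrin ITGB5 lowest at −0.09. LOXL2 passed the FPKM minimum in the lactate input only, with FPKM 0.995 and 1.15. Mitosis genes had a median of −0.03, or 0.07 without a pseudocount, with CKS2 at −0.55 and KIF23 at 0.43 at the ends of 26. DNA replication genes had a median of −0.13 (−0.12), and none of 21 passed 0.5 with the added 1. Without a pseudocount 2 of them were at least 0.5 lower, the replisome genes GINS2 at −1.23 on 92 reads and MCM10 at −0.52. Replication-dependent histones, whose messages mostly lack poly(A) tails, had 8 measured members of 41 in the table and a median of −0.48. Of the 4 with at least 50 reads, H4C3 had FPKM 350 and 146 (−0.83), H1-2 stood at −0.70, H2AC6 at −0.51 and H2BC5 at −0.45. Chromatin remodelling subunits had a median of 0.15 (0.15), the 95 measured ZNF genes 0.03 (−0.01), and lysosome, V-ATPase and Ragulator genes −0.16 (−0.09).

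Of the genes that the wider study concerns, the m5C machinery lay between −0.19 and 0.05 in the input, while CDCP1 stood above it. NSUN2 had FPKM 3.39 and 1.85 from 329 and 114 reads and stood at −0.19 (without a pseudocount −0.28, interval −0.60 to 0.03). The other m5C writers and readers measured were YBX1 at −0.18, SRSF2 at −0.01, YTHDF2 at 0.01, FMR1 at 0.02 and ALYREF at 0.05. CDCP1, a membrane glycoprotein that Src kinases phosphorylate, had FPKM 3.13 and 3.81 from 359 and 277 reads (0.65, without a pseudocount 0.88, interval 0.65 to 1.11). STC1, a secreted glycoprotein, had FPKM 1.37 and 1.15 from 100 and 53 reads (0.29, without a pseudocount 0.34, interval −0.17 to 0.83), so its difference lay within counting error. In the axon guidance and nerve growth list, 9 of 40 genes in the table were measured, 8 of them above the median, or 7 without a pseudocount. CDCP1, which was put on this list, was the highest and with the added 1 the only member at least 0.5 higher. The ephrin EFNA1 was next at 0.40, and the netrin NTN4 lowest at −0.38.

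The nuclear-retained long noncoding RNAs MALAT1 and NEAT1 had nearly the same FPKM in both inputs, while the median gene was lower with lactate. MALAT1, of nuclear speckles, had FPKM 455.8 and 457.3 and so stood at 0.44. NEAT1, the scaffold of paraspeckles, had 15.36 and 14.998 (0.40). The list of 7 had a median of 0.21 (0.24 without a pseudocount), and the small nucleolar RNA host ZFAS1, at −0.33, and TUG1, at −0.17, were below. Among 109 lncRNA genes with a symbol and at least 50 reads, the highest were SNHG15 (0.80, 53 and 56 reads), TMPO-AS1 (0.66), SNHG4 (0.59), BAZ1A-AS1 (0.58) and RBM33-DT (0.57), and the lowest PCCA-DT (−0.81, 159 and 29 reads), EMSY-DT (−0.80), MINCR (−0.78), ATP6AP1-DT (−0.77) and CAPN1-AS1 (−0.72). SNHG15 and RBM33-DT passed the FPKM minimum in the lactate input only. The sources used here do not say whether counting used strand, so reads of an antisense gene and its partner cannot be told apart. The 14 hosts of small nucleolar RNA had a median of 0.01. Processed pseudogenes had a median of −0.12 over 525 genes, and −0.26 over the 245 with at least 50 reads. The 58 small nuclear and 29 small nucleolar RNA genes had medians of 0.47 and 0.77 but only 2 genes of each kind with at least 50 reads.

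Gene length and the ratio moved together across protein-coding genes. The 5484 genes with at least 50 reads were put into 10 bins of length. In the shortest bin, from 405 to 1954 bases, the median was −0.19 and 19.7% of genes were at least 0.5 lower. In the longest bin, from 10627 to 49554 bases, the median was 0.10 and 0% were. The order held without a pseudocount, with medians of −0.14 and 0.08 and shares of 18.4% and 2%. It also held among the most abundant genes, those above an FPKM of 4.94 as a mean of the inputs, with medians without a pseudocount of −0.09 up to 3570 bases, 0.05 up to 6389 bases and 0.09 beyond. The 15 lowest genes had a median length of 1764 bases and the 15 highest 2874, both under the 4820 of all, so short genes were at both ends. A fall of the median with level, from 0.08 in the lowest to −0.20 in the highest of 10 bins of level, was not kept without a pseudocount, where the same bins had −0.14 and −0.06. The part that length plays in the lower values of short-gene families such as the respiratory subunits was not tested beyond the medians against genes of like length given above. Lengths were recovered from the FPKM values and can be understated.

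**Figure D3:**
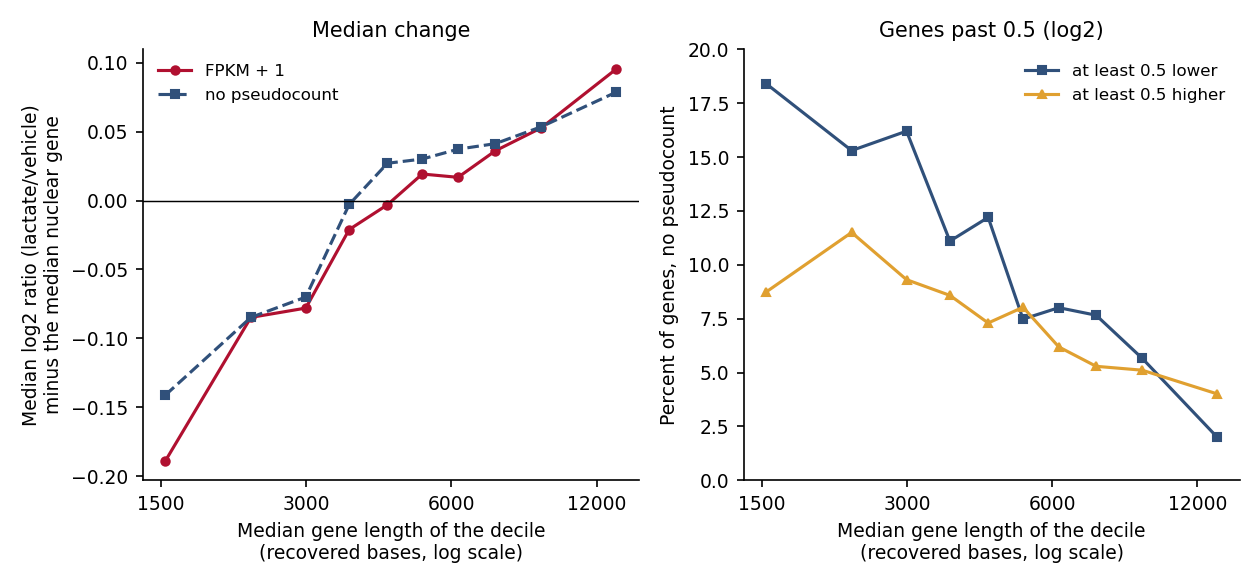
Left, the median log2 ratio of lactate over vehicle input minus the median nuclear gene in 10 bins of gene length, with FPKM + 1 (circles) and without a pseudocount (squares), against the bin's median length in bases (log scale). Right, the percent of genes at least 0.5 lower (squares) or higher (triangles) without a pseudocount; the share of lower genes goes from 18.4% in the shortest bin to 2% in the longest.

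RNA of the mitochondrial genome did not follow nuclear RNA, and its kinds differed from each other. The 2 ribosomal RNAs took 41.6% of the vehicle and 56.0% of the lactate input reads. MT-RNR2, of the large mitochondrial ribosomal subunit, had FPKM 262964 and 353504 (0.86 relative to the median nuclear gene), and MT-RNR1, of the small one, 5933 and 9519 (1.11). Without a pseudocount they stood at 1.02 and 1.28. The 13 messages together took 26.7% and 22.7% of reads, and 10 of them lay above the median nuclear gene, and their median was 0.19. On the deposited scale 4 were higher with lactate, namely MT-ATP8, MT-ND6, MT-ND3 and MT-ATP6, and 9 lower. MT-ATP8, of ATP synthase, was the highest with FPKM 15981 and 23153 (0.97), although it overlaps MT-ATP6, at 29398 and 29691, so their reads may be shared. MT-ND1, of complex I, was the lowest with FPKM 36089 and 23611 (−0.18). Without a pseudocount it stood at −0.02, the only message below the median nuclear gene. The median of the 13 messages on that scale was 0.35. MT-CO2 had FPKM 14935 and 10213, MT-CO1 14103 and 10432, and MT-CO3 48628 and 41088, the 3 mitochondrially encoded core subunits of complex IV. MT-ND2 had FPKM 39128 and 36952, MT-ND4 33056 and 26399, MT-CYB 27902 and 23186, MT-ND6, from the opposite strand, 18238 and 23284, MT-ND3 9690 and 11035, MT-ND5 4165 and 3709, and MT-ND4L 2096 and 1771. The share of mitochondrial ribosomal RNA in a library also sets the FPKM of all other genes, and its part in the lower nuclear share cannot be told apart from less nuclear RNA per cell. Of 19 mitochondrial tRNA genes 15 were measured, and MT-TP, with 1382 and 724 reads, was the only one with over 90 reads in an input. The others had too few reads to describe one by one; MT-TY had 87 and 90 reads, MT-TL1 76 and 79, and MT-TE 44 and 70.

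**Figure D4:**
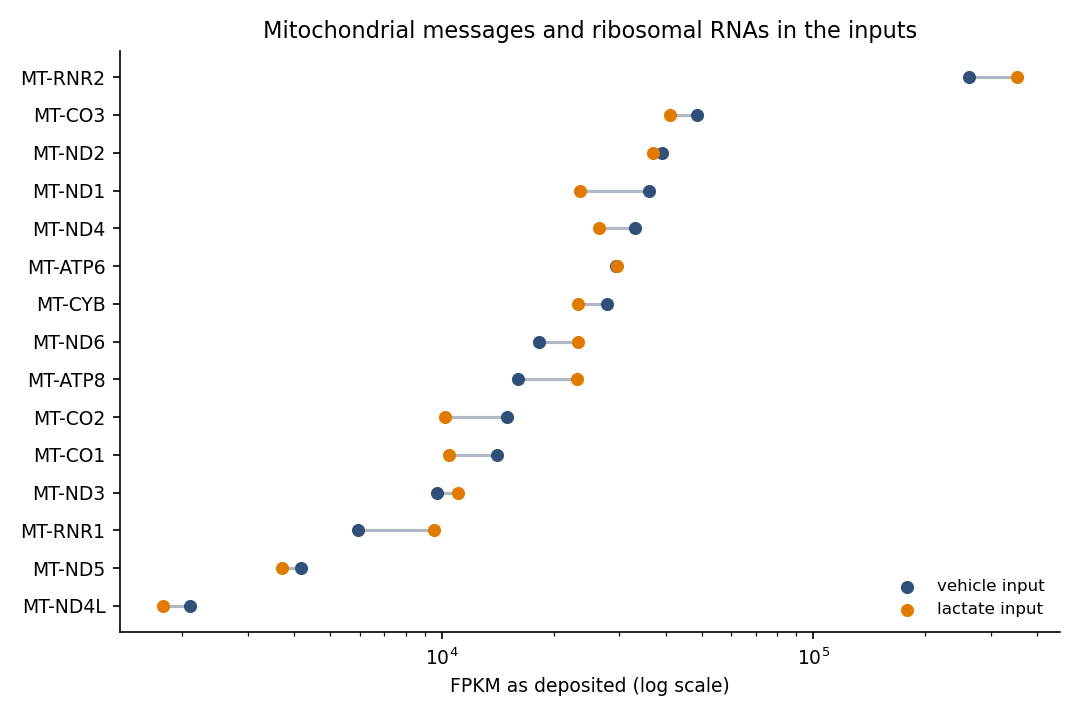
FPKM as deposited (horizontal axis, log scale) of the 13 messages and 2 ribosomal RNAs of the mitochondrial genome in the vehicle and lactate inputs, 1 library each, ordered by vehicle level. Both ribosomal RNAs, MT-ATP8, MT-ND6, MT-ND3 and MT-ATP6 lie to the right with lactate and the other 9 messages to the left.

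The 2 IP libraries come from the same lysates but are separate libraries, and they offer the same ratio of lactate over vehicle measured again in bound RNA. A change there can come from level or from binding. Of 194 protein-coding genes at least 0.5 higher in the input, 140 were measured in the IP libraries. Their median IP ratio, relative to the median nuclear gene of that comparison, was 0.16 and 16.4% of them were at least 0.5 higher, against 5.52% of the 4837 protein-coding genes measured in both. Of 284 at least 0.5 lower in the input, 268 were measured, with a median of −0.33 and 35.4% at least 0.5 lower, against 14.2%. When the sets were drawn again without a pseudocount, 29.3% of 358 higher genes were at least 0.5 higher in the IP, against 15.2% of 5215 protein-coding genes. Of 532 lower genes 17.5% were at least 0.5 lower there, against 12.8%. Of the same 532 genes 15.2% were at least 0.5 higher in the IP, the share of all 5215. Their median IP ratio was −0.06, against 0.03 over all. Of the 358 higher genes 10.9% were at least 0.5 lower in the IP. On this scale the lower set thus differed little from all genes in the IP. Across genes, which are not independent replicates, Pearson's r between the ratios was 0.30 and Spearman's rho 0.27, and over 3396 genes with at least 200 reads in each pair they were 0.39 and 0.34, or 0.23 and 0.21 without a pseudocount. The correlation is a description of these 4 libraries.

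The genes at the ends of the input ratio were then read in the IP libraries, where 56.9% of the 4837 protein-coding genes measured in both lay below the median nuclear gene, or 47.2% without a pseudocount. EGR1 had an IP FPKM of 4.94 without and 10.6 with lactate, from 211 and 507 reads, the highest IP ratio of the protein-coding genes measured in both, at 1.72. CCN1 stood at 0.80, IER2 at 0.50 and CCN2 at 0.37, and DUSP6, with FPKM 1.62 and 0.904, at 0.29. Of the 15 highest genes 12 were measured and 11 lay above the median. These 12 include CSAD and CDC42EP1, which passed the input minimum with lactate only. Of the 15 lowest, 12 lay below, with ATP5F1E at −2.34, ATP5PF at −2.13, UBL5 at −1.93 and NDUFA1 at −1.88. RPE at 0.63, COQ3 at 0.39 and AGR2 at 0.17 were above. Without a pseudocount 13 of 13 of the highest lay above, but only 10 of the 15 lowest lay below, since LGALS1 and IFITM3 changed side. Complex IV, ATP synthase and Sm protein lists had IP medians of −0.62, −0.66 and −0.47, with 10 of 12, 14 of 17 and 15 of 16 genes below. Without a pseudocount these medians were −0.38, −0.44 and −0.42. Immediate early genes had 0.19, with 10 of 12 above. Matrix genes, at −0.22, and chromatin remodelling subunits, at −0.34, lay on the other side than in the input, but without a pseudocount these IP medians were only −0.03 and −0.13. MYC had 3 reads in the vehicle and 40 in the lactate IP, the opposite of its 112 and 11 input reads, and it did not reach an FPKM of 1 in either IP. KLF10 stood at 0.02 in the input and 1.17 in the IP, and STC1 at 0.29 and 1.14.

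**Figure D5:**
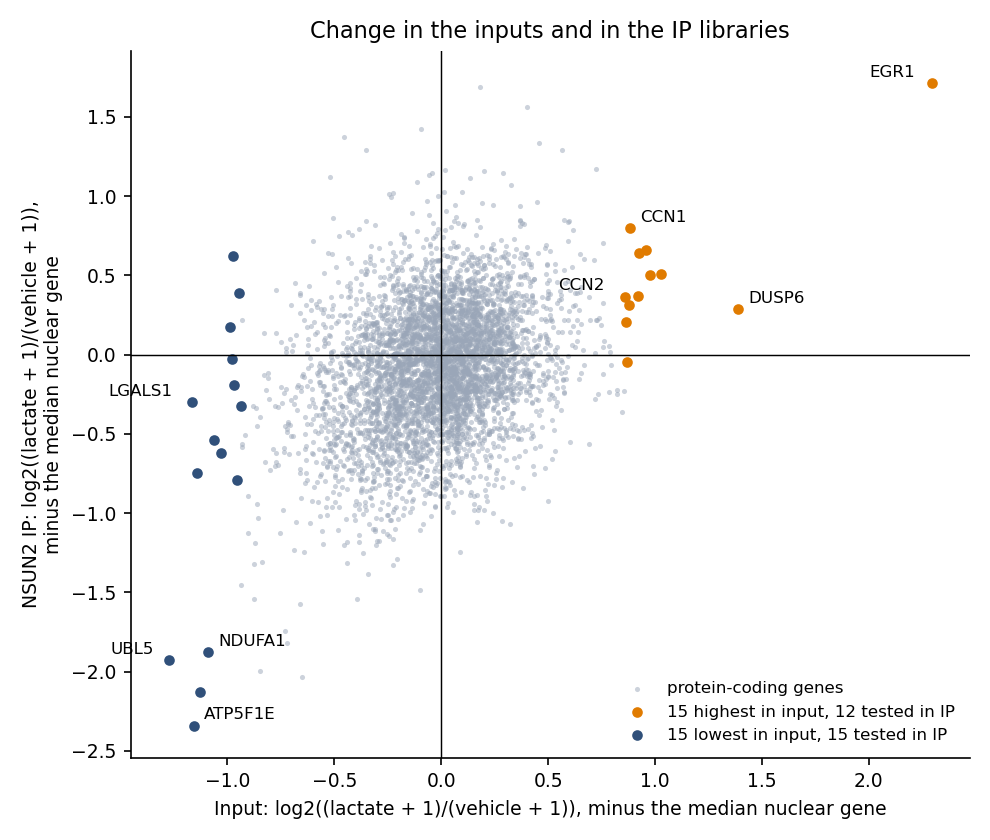
Relative log2 ratio of lactate over vehicle in the inputs (horizontal axis) against that in the NSUN2 IP libraries (vertical axis), 1 point per protein-coding gene with at least 50 input reads. Of the 15 genes highest in the input (orange) 11 of 12 measured lie above the median in the IP, and of the 15 lowest (blue) 12 of 15 lie below.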

How the data were processed

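The authors deposited gene values as FPKM for 4 libraries, prepared from full-length cDNA (SMART-Seq v4), per the labels' protocols. Reads were handled with fastp 0.20.1 and HISAT2 2.1.0 on GRCh38, according to the submitters' processing notes. Counter, strand setting and the handling of reads that map to several places were not given in the sources used here. Whole reads were recovered from the FPKM values: 100% of the 72387 positive values lay within 1e-06 of a whole number. Where a gene's reads in all libraries share a divisor, reads and length are understated; MT-ND4 was multiplied by 2 to match its RefSeq length. Computed here in Python 3.11.15 were log2 ratios of FPKM + 1, the counts at 1 and 0.5, list medians and exact Clopper-Pearson 95% intervals on the reads of a gene. The scripts were tested on simulated data. Members and lists were chosen with earlier results of these data known. Named genes are the 15 highest and 15 lowest protein-coding genes with at least 50 reads, the 2 highest and 2 lowest of each list (lists of 8 or fewer could be named whole), 5 lncRNA genes per direction, all mitochondrial genes, EGR1, CDCP1, STC1 and NSUN2; others were picked after their values were seen or for comparison. Alternatives were the pseudocount, the minimums, the centring and gene length; the ratio without a pseudocount was added after seeing the data. At the FPKM minimum, KCNN4 (0.999 and 0.716) lay just outside and GSTCD (1.00 and 0.996) just inside. The deposited peak lists were not used.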

Additional observations from a re-analysis of the deposited data

How the results depend on the processing

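The numbers of nuclear genes past a threshold depended on the settings, and the text gives 172 at least 2-fold higher, 89 at least 2-fold lower, 479 at least 0.5 higher and 578 at least 0.5 lower. In the same order they were 280, 334, 727 and 918 with a pseudocount of 0.1 and 18, 37, 124 and 313 with 5. A minimum FPKM of 5 in either input gave 26, 29, 101 and 167, a minimum of 1 in both inputs 32, 27, 242 and 352, and at least 50 reads 8, 24, 226 and 369. Protein-coding genes alone gave 8, 8, 187 and 291. These settings mostly test fewer genes, those with more reads. Without an FPKM minimum 275 genes were 2-fold lower and 2152 at least 0.5 lower. On the deposited scale 435 were 2-fold lower, 190 at least 0.5 higher and 2777 at least 0.5 lower, by the shift of the median. Equal nuclear totals gave 190 2-fold lower. The setting without a pseudocount, chosen after seeing the data, gave 65 2-fold higher and 156 2-fold lower. The share of higher genes among the 2-fold genes was 65.9%, against 45.6% and 32.7% with pseudocounts of 0.1 and 5, 47.3% and 54.2% with the stricter FPKM minimums, 38.1% without one, 25% with at least 50 reads, 29.4% without a pseudocount and 50% in protein-coding genes.

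Of 41 list medians 5 changed side of the median nuclear gene without a pseudocount and 3 relative to genes of like length. Of 204 named genes 6 and 5 did. Other settings changed more: on the deposited scale 15 list medians and 61 named genes changed side, and without an FPKM minimum 12 and 48. With an FPKM minimum of 5 in either input 7 of 38 list medians changed side, and with equal nuclear totals 6 of 41. No paired analysis was possible because each group has 1 library, and for the same reason leaving out a library was not possible. With a median of 105 reads per nuclear gene in the lactate input, genes with few reads have wide intervals, and some of their differences, such as that of STC1, lie within counting error.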

Other observations

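Other genes were chosen after their values were seen. TFB1M, a mitochondrial ribosomal RNA methyltransferase, had 99 reads with vehicle and 5 with lactate (−3.06 relative to the median nuclear gene without a pseudocount, 95% interval −4.71 to −1.78), against 87 and 62 reads in the IP libraries. ALKBH2, a DNA repair dioxygenase, had 99 and 10 input reads (−2.06, interval −3.16 to −1.12) and 117 and 44 IP reads. At the other end, IGF2R, the lysosomal sorting receptor for mannose 6-phosphate, was well covered with 10380 and 7762 reads and FPKM 26.04 and 30.7 (0.66, without a pseudocount 0.83, interval 0.79 to 0.88).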
